A study of Mus musculus with 4 samples.

Results

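The mitosis, kinetochore and spindle genes are 50 genes that carry a cell from the end of DNA synthesis through division. They were chosen by symbol from a list of known division genes, and 50 of 50 have a row among the 24063 gene symbols of the deposited tables. All 50 reached a mean of at least 1 count per 1000000 (CPM), as did 13129 genes in all, so no member was lost to the filter on low values. The RNA came from 4 mouse tumours, whose strain is labelled C57BL/6 and, in the sample titles, C57BL6/J, with 1 genotype label, MYC;PMEPA1, for overexpression of MYC, an oncogenic transcription factor, and PMEPA1, a membrane protein known as a target and brake of TGF-beta signalling. The genes were introduced by hydrodynamic tail vein delivery, and the labels record no further treatment. The tumours carry the replicate numbers 1, 5, 9 and 10, and the labels give 8 to 10 passages. It is not clear from them whether the RNA came from tissue or from cultured tumour cells. There was no control group and 1 group only, so the one comparison was between the tumours. Nothing in the labels ties each tumour to its own animal, so p-values measure only the spread between these samples, which may be technical. Hydrodynamic delivery transfects a fraction of the liver's hepatocytes, and the labels name neither the promoter that drove the 2 genes nor the species of their sequences. The label gives the tissue as a tumour, and the series title names HCC, hepatocellular carcinoma. The hepatocyte genes albumin (Alb) and transferrin (Trf) were abundant in all 4, at 4732, 4520, 5594 and 13400 CPM and 4710, 5468, 5048 and 4112 CPM in tumours 1, 5, 9 and 10.

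In dividing cells, cyclin-dependent kinase 1 bound to cyclins A and B starts mitosis, and Aurora and Polo-like kinases build the spindle. Kinetochores, protein plates on the centromeres, hold the chromosomes to spindle microtubules, and the spindle checkpoint blocks the anaphase-promoting complex until every kinetochore is attached. Destruction of securin and cyclin B then frees separase, the sister chromatids part, and kinesins and an actin ring divide the cell. In an adult liver most hepatocytes are at rest and express few of these genes, whereas growing and cancerous liver expresses them together. Their promoters are held silent in resting cells by the DREAM complex and are activated in late cell cycle by the MMB complex and FOXM1, which act at a short element called the cell cycle genes homology region (CHR), often beside CCAAT boxes bound by NF-Y.

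The CHR letters were common in the promoters of these genes. RefSeq promoters on GRCm38.p6, from 250 bases before to 50 bases after the transcript start, were found for 42 of the 50 members, 47 promoters in all. None is listed for Ccna2, Aurkb, Incenp, Foxm1, Tpx2, Kif20a, Spc24 and Cdc25c. CHR letters (TTTGAA or TTCGAA, either strand) were present in 33 of the 47 promoters (70.2%), against 19.2% of all 32851 promoters of the same length and 14% of the 12451 promoters of expressed genes. Within 50 bases of the start on either side they were present in 29 of the 47 (61.7%), against 5.3% of all promoters and 3.6% of those of expressed genes. The CCAAT letters (either strand) were in 34 of the 47 (72.3%), against 37.4% and 37.6%, and both elements were in 28 (59.6%), against 7.5% and 5.7%. The letters CACGTG, an E-box that MYC can bind, were in 4 of the 47 (8.5%), near the 7.2% of all promoters and the 9.9% of those of expressed genes. E2F letters (TTTGGCGC, TTTCGCGC, TTTCCCGC or TTTGCCGC, either strand) were in 3 (6.4%), against 2.3% and 3.8%. There was 1 overlap between matches of different elements in the members. A match is a description of the letters and shows no binding.

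The 130 bases before the start are shown for 7 genes to let the layout be read beside the levels that follow, with CHR and CCAAT letters on either strand in capitals. They were chosen after the values were seen: Cdk1, Cdc20, Top2a, Ube2c, Espl1 and Prc1 were lowest in tumour 10, and Pttg1 was highest there. Not all members follow this split. Spc25, also highest in tumour 10 but nearly level with tumour 9 (60.95 against 60.8 CPM), has CHR letters 25 bases into the transcript. Lowest in tumour 10 were 26 of the 30 members with CHR letters and 9 of the 12 with a listed promoter and none. In Cdc20 the CHR letters begin 18 bases before the start, in Ube2c 29, in Espl1 27 and in the second Prc1 promoter 30. Cdk1 has a pair of CHR matches in this stretch, at 71 and 15 bases, and Pttg1 has no capitals. The Pttg1 gene coordinates given below, from GENCODE rather than RefSeq, reach 43426251 on the minus strand. By them the stretch printed for Pttg1 lies inside the gene. Its lack of capitals may therefore not describe the promoter. By the same coordinates the CHR letters of Ube2c, those of Espl1 and the Cdk1 match at 15 bases also lie inside the gene. Those of the second Prc1 promoter lie across the gene's first base. The distances given are from the RefSeq start.
Cdk1, chr10:69352913-69353042, minus strand: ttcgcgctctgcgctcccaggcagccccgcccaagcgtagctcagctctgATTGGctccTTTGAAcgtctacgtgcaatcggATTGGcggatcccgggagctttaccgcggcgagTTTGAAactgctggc
Cdc20, chr4:118437344-118437473, minus strand: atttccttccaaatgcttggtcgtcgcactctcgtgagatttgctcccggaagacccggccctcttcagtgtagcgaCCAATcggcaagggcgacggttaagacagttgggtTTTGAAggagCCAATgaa
Top2a, chr11:99024190-99024319, minus strand: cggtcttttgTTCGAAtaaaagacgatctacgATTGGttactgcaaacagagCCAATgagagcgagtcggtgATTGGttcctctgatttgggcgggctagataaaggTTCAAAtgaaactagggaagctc
Ube2c, chr2:164769799-164769928, plus strand: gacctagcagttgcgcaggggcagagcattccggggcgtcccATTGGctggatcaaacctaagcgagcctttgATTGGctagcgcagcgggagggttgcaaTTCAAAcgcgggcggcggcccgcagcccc
Espl1, chr15:102296163-102296292, plus strand: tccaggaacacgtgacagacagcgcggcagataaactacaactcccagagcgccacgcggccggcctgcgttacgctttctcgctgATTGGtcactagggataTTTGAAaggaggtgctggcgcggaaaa
Prc1, chr7:80294346-80294475, plus strand: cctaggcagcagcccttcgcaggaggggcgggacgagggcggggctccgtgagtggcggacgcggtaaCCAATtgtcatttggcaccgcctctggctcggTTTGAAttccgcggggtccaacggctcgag
Pttg1, chr11:43425982-43426111, minus strand: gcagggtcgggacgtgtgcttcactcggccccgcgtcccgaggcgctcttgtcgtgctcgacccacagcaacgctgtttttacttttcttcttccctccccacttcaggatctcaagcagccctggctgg

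Most of the mitosis genes were lowest in tumour 10 and next lowest in tumour 9. Of the 50 members, 41 were lowest in tumour 10, where 32.4% of all 13129 expressed genes were lowest, and 34 were lowest there and next lowest in tumour 9, as were 16.1% of all genes. The other members were lowest in tumour 9 (6, against 25.5% of all genes), tumour 5 (Spc25 and Ckap2, against 20.3%) and tumour 1 (Ccnb2, against 21.8%). Tumour 1 was highest for 27 members (21.4% of all genes) and tumour 5 for 18 (21.2%). Only Ccnb2 and Kif23 were highest in tumour 9, where 21.6% of all genes were, and only Spc24, Spc25 and Pttg1 in tumour 10, where 35.8% of all genes were. The median member lay 0.38, 0.29, -0.05 and -0.58 log2 units from its own 4-tumour mean in tumours 1, 5, 9 and 10, where the median of all expressed genes lay at -0.01, 0.00, -0.04 and 0.02. In tumour 10 the median member stood at 56.9% of its mean over the other 3 tumours, against 97.8% for the median of all expressed genes. It stood at 50% or less for 17 members (34.0%), against 14.3% of all genes. The full order from high to low was tumours 1, 5, 9 and 10 for 20 members (8.13% of all genes) and 5, 1, 9 and 10 for 14 (7.94%). With tumour 10 left out, 40 of the 50 members were lowest in tumour 9. The share of all genes was not taken in that setting. Scaling by total counts alone, without TMM, put the median of all genes at 0.13, 0.04, 0.10 and -0.30. With it 47 of the 50 members were lowest in tumour 10, against 53.3% of all genes, and the median member lay at -0.90 there.

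**Figure D1:**
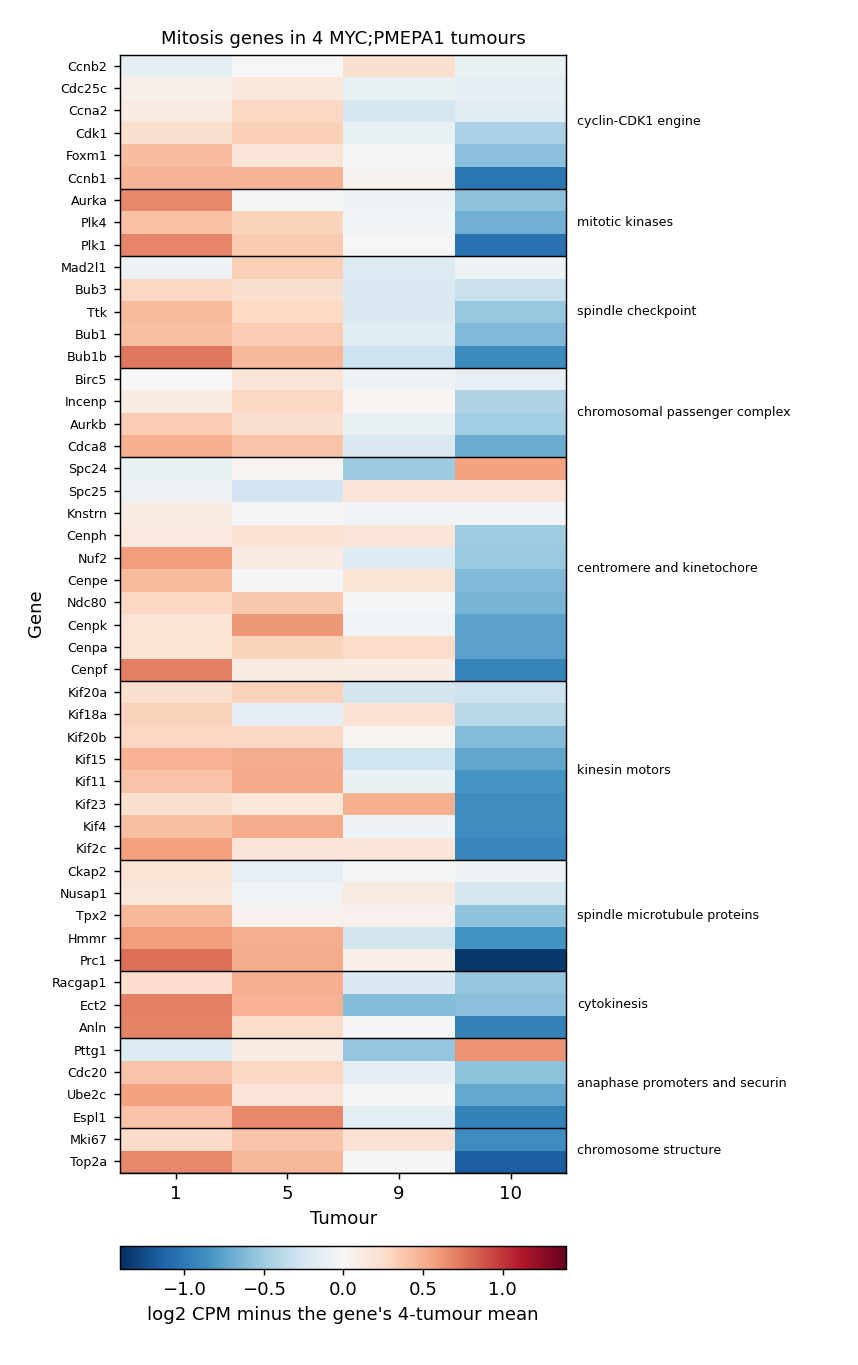
Heat map of the 50 genes (rows, grouped by role) in the 4 tumours (columns); colour gives log2 CPM minus the gene's own 4-tumour mean, blue below and red above it. The column of tumour 10 is blue for 47 of the 50 genes, and Spc24, Spc25 and Pttg1 are the exceptions (with total counts alone, Spc24 and Pttg1 only).

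The spread between tumours was moderate in size. The SD of log2 CPM over the 4 tumours had a median of 0.47 over the members, close to the 0.45 of all expressed genes, and ranged from 0.07 for Knstrn to 0.94 for Prc1. None of the 50 members had an SD of at least 1, while 16.6% of all genes did. The member counts ranged from 137 (Cenpk in tumour 10) to 18754 (Top2a in tumour 1), which by counting alone gives a relative error of 8.54% and 0.73%. All 50 members differed between the tumours by more than counting error (Poisson heterogeneity test, adjusted over all genes at 0.05), but so did 98.7% of all genes. With an added technical variation of 5%, 48 members did, as did 94.1% of all genes. In bulk RNA, fewer dividing cells and less of a transcript per cell cannot be told apart.

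Both genes of chromosome structure were far lower in tumour 10. Mki67, the proliferation antigen that coats mitotic chromosomes (GRCm38 chromosome 7, 135689784 to 135716361, minus strand), was the most abundant member by CPM, with 261 ± 85.8 CPM (SD, n = 4). It had 299, 326, 285 and 135 CPM in tumours 1, 5, 9 and 10, so the first 3 tumours lay close together and tumour 10 lay at 44.5% of their mean. Top2a, the topoisomerase that untangles sister chromatids (chromosome 11, 98992943 to 99024189, minus strand), had 328, 284.5, 209 and 92.7 CPM. Its log2 difference in tumour 10 from the other 3 was -1.56 ± 0.36 (SE), with an adjusted p of 0.35 (edgeR quasi-likelihood test over all genes). For Mki67 the same edgeR test gave -1.17 ± 0.26 (SE) and an adjusted p of 0.321.

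The genes of the cyclin and CDK1 engine parted in tumour 10. Ccnb1, which encodes cyclin B1 (chromosome 13, 100778650 to 100786570, minus strand), had 159, 159, 118 and 56.55 CPM, 38.9% of the other tumours' mean in tumour 10. Ccnb2, its relative cyclin B2, had 70.1, 75.9, 89.1 and 71.6 CPM and was the only member lowest in tumour 1, with its highest value in tumour 9; with total counts alone it was lowest in tumour 10. Cyclin A2 (Ccna2), which acts earlier, was the most abundant of the group, with 207, 234, 161 and 172 CPM, and it was lowest in tumour 9. Per kilobase of transcript, Ccnb1 stood at 1.51, 1.39, 0.883 and 0.525 times Ccnb2 in tumours 1, 5, 9 and 10, so the more abundant of the B cyclins was Ccnb1 in tumours 1 and 5 and Ccnb2 in tumours 9 and 10. Ccna2 stood at 1.07, 1.21, 1.12 and 2.5 times Ccnb1, apart in tumour 10 only. The kinase gene Cdk1 had 135, 145, 107 and 84.6 CPM and the late cell cycle activator Foxm1 52.4, 43.8, 38 and 25.9 CPM, both lowest in tumour 10. Cdc25c, a phosphatase that switches CDK1 on, spanned only 17.5, 18.45, 15.7 and 15.3 CPM (SD of log2 CPM 0.13).

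All 3 mitotic kinase genes had the order of tumours 1, 5, 9 and 10, from high to low. Plk1, Polo-like kinase 1, had 121.5, 97, 75.5 and 36.5 CPM, and its log2 difference in tumour 10 was -1.42 ± 0.36 (SE) (edgeR adjusted p = 0.397). Aurka, the spindle pole kinase, had 118, 72.4, 70.7 and 49.6 CPM and stood clear of the others in tumour 1. Plk4, which starts centriole copying, had 43.35, 40.7, 31.75 and 20.5 CPM. The ratio of Tpx2, the protein that activates Aurora A on the spindle, to Aurka per kilobase was 0.417, 0.519, 0.534 and 0.492, a narrower range than that of either gene.

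Of the 5 spindle checkpoint genes, 4 were lowest in tumour 10, by unequal amounts. Bub1b, which encodes the checkpoint protein BubR1, had 110.2, 90.55, 54.2 and 35.7 CPM, the widest spread of the group. Bub3, the partner that brings BubR1 and Bub1 to the kinetochore, had 98.7, 94.1, 70.0 and 64.8 CPM. Per kilobase, Bub1b stood at 0.625, 0.539, 0.434 and 0.308 times Bub3. Mad2l1, the protein that holds the activator Cdc20 in check, had 63.4, 84.2, 58.4 and 63.5 CPM, with tumours 1, 9 and 10 close together and tumour 5 highest. Bub1 and Ttk, the checkpoint kinases, had 70.45, 67.4, 47.1 and 34.4 CPM and 45.85, 40.8, 29.3 and 23.25 CPM, both lowest in tumour 10.

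The chromosomal passenger complex, which corrects faulty attachments, was lowest in tumour 10 for 4 of 4 genes. Its scaffold Incenp had 123, 139.6, 117 and 85.8 CPM and its kinase Aurkb 81.1, 74.1, 59.15 and 45.3 CPM, and their ratio per kilobase was nearly level, at 0.921, 1.15, 1.2 and 1.15. Cdca8, which encodes borealin, had 98.2, 91.6, 60.3 and 42.7 CPM, 51.2% of the other tumours' mean in tumour 10. Birc5, which encodes survivin, had 114, 128.5, 108 and 105 CPM and was almost even, at 89.8%. Birc5 over Cdca8 per kilobase was 0.553, 0.667, 0.851 and 1.17 with the 3416-base Birc5 row, lowest in tumour 1 and highest in tumour 10. The 972-base Birc5 row, which holds 92.5% as many counts, gave 1.77, 2.2, 2.75 and 3.86, in the same order, so the level of the ratio depends on the row and whether it lies above 1 cannot be read.

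**Figure D2:**
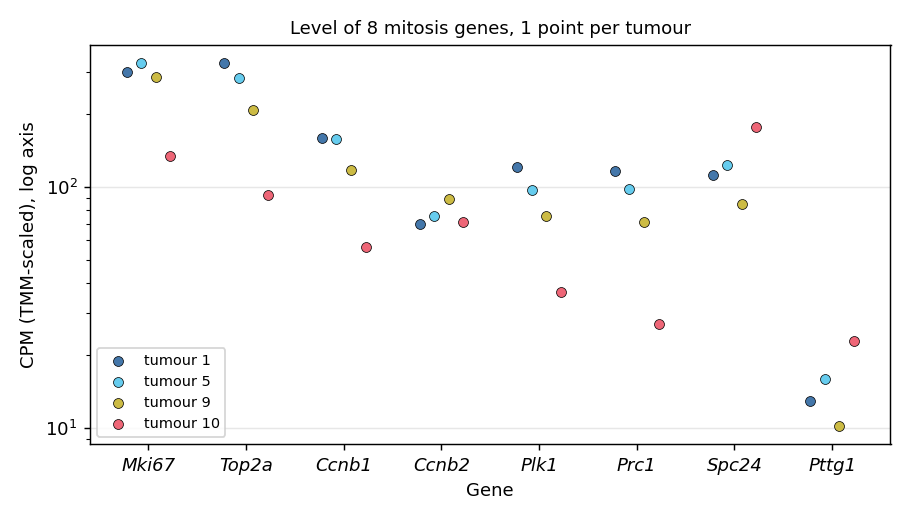
Levels of 8 genes chosen after their values were seen, 1 point per tumour, in TMM-scaled CPM on a log axis. Mki67, Top2a, Ccnb1, Plk1 and Prc1 are lowest in tumour 10, Ccnb2 is nearly level, and Spc24 and Pttg1 are highest in tumour 10.

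Among the kinetochore genes, subunits of 1 complex differed in where they were highest. The NDC80 complex, a rod of 4 proteins that grips the microtubule, is made of Ndc80 and Nuf2 on the outside and Spc24 and Spc25 on the inside. Ndc80 had 22, 23.4, 17.8 and 11.5 CPM and Nuf2 29.9, 21.5, 17.5 and 13.8 CPM, both lowest in tumour 10. Spc24 (chromosome 9, 21755442 to 21760303, minus strand) had 113, 123, 84.7 and 177.5 CPM and was highest in tumour 10, at 166% of the mean of the others, a log2 difference of 0.73 ± 0.29 (SE) (edgeR adjusted p = 0.676). Spc25 had 50.7, 44.5, 60.8 and 60.95 CPM, level between tumours 9 and 10; with total counts alone it was highest in tumour 9, while Spc24 was still highest in tumour 10. After length correction Spc25 also lay higher in tumour 9, at 0.24 log2 units, than in tumour 10, at 0.01. Per kilobase, Spc24 stood at 8.34, 8.59, 7.78 and 25.2 times Ndc80, and Spc25 at 2.58, 3.14, 5.29 and 6.73 times Nuf2. The outer pair kept its proportion more closely, with Nuf2 at 1.24, 0.841, 0.899 and 1.1 times Ndc80. Spc24 and Spc25 have short transcript rows, of 1349 and 1582 bases, against 2201 for Ndc80 and 2405 for Nuf2.

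The other 6 kinetochore genes include the largest transcript of the members. Cenpf, a large outer kinetochore protein with a transcript row of 11122 bases, had 79.1, 52.95, 52.3 and 25.4 CPM, and Cenpe, a kinesin that carries chromosomes to the middle of the spindle, had 75.1, 53.9, 63 and 35.9 CPM. Cenpa, the histone variant that marks centromeres, had 74.55, 81, 77.8 and 38.8 CPM, with tumours 1, 5 and 9 almost equal and tumour 10 at 49.9% of their mean. Cenph and Cenpk, of the inner kinetochore, were also lowest in tumour 10, at 62.7% and 49.1%. Knstrn, a spindle adaptor, was the most even of all 50 members, with 51.8, 47.9, 46.5 and 47.2 CPM and an adjusted Poisson p of 0.000299.

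All 8 kinesin genes were lowest in tumour 10. Kif20a, a motor of cytokinesis, was the most abundant, with 120.0, 129, 86.4 and 84 CPM, tumours 9 and 10 being close. Kif11, the motor that pushes the spindle poles apart, had 122, 134, 86.6 and 52.3 CPM. Kif2c, which takes microtubules apart at faulty attachments, had the widest spread, with 56.4, 42.7, 42.6 and 20.1 CPM. Tumour 10 stood at 42.5% of the mean of the others for Kif2c, 43.8% for the chromosome motor Kif4, 45.9% for Kif11 and 49.55% for Kif15, which backs up Kif11. Kif18a and Kif20b stood at 68.8% and 56.8%. Kif23, the motor of the spindle midzone, was one of the 2 members highest in tumour 9, with 31.2, 29.5, 37.6 and 14.6 CPM.

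Prc1 had the largest difference of all members. It bundles the microtubules of the spindle midzone (chromosome 7, 80294450 to 80316259, plus strand) and had 117, 98.1, 71.8 and 26.9 CPM, 3.55-fold lower in tumour 10 than the mean of the others. Its log2 difference was -1.83 ± 0.38 (SE) (edgeR adjusted p = 0.288). Tpx2 had 109, 83.05, 83.4 and 53.9 CPM and Hmmr, a spindle pole protein, 101, 95.15, 56.15 and 37.5 CPM. Nusap1 and Ckap2, which stabilize spindle microtubules, varied little, with 49.5, 42.8, 48.35 and 37.3 CPM and 44.1, 35.8, 38.3 and 36.9 CPM. Per kilobase, Kif20a stood at 0.87, 1.12, 1.02 and 2.64 times Prc1, with tumour 10 apart.

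Of the 3 cytokinesis genes, Ect2 parted tumours 9 and 10 from tumours 1 and 5. It encodes the exchange factor that switches on RhoA at the division site and had 82.6, 71.1, 33.2 and 33.8 CPM. Its partner Racgap1, which joins Kif23 in centralspindlin, had 124, 149, 91.3 and 72.3 CPM. Anln, the anillin scaffold of the contractile ring, had 69.6, 51.3, 42.4 and 22.3 CPM, 40.9% of the other tumours' mean in tumour 10. Kif23 over Racgap1 per kilobase was 0.226, 0.177, 0.369 and 0.181, highest in tumour 9.

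The anaphase genes went opposite ways. Espl1, which encodes separase, the protease that cuts cohesin, had 85.75, 104, 59.75 and 33.6 CPM, 40.5% in tumour 10. Pttg1, which encodes securin, the inhibitor of separase (chromosome 11, 43420250 to 43426251, minus strand), had 13, 15.9, 10.2 and 22.95 CPM and was highest in tumour 10, also with total counts alone, with a log2 difference of 0.82 ± 0.40 (SE) (edgeR adjusted p = 0.846). Per kilobase, Pttg1 stood at 0.594, 0.602, 0.669 and 2.68 times Espl1 with the 1690-base Pttg1 row. The 740-base row gave 1.26, 1.33, 1.42 and 5.51, so tumour 10 was highest with either row, but which of the genes was more abundant in the other tumours depends on the row. Cdc20, the activator of the anaphase-promoting complex, had 189.8, 175, 132 and 96.7 CPM, and Ube2c, the enzyme that hands ubiquitin to it, had 138, 106, 91.4 and 56.9 CPM. Per kilobase, Ube2c had a mean of 105 CPM, Spc24 92.3 and Cdc20 83.2, the highest with the rows used; the 972-base Birc5 row would stand at 109. Kif18a had the lowest such mean, at 3.83.

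**Figure D3:**
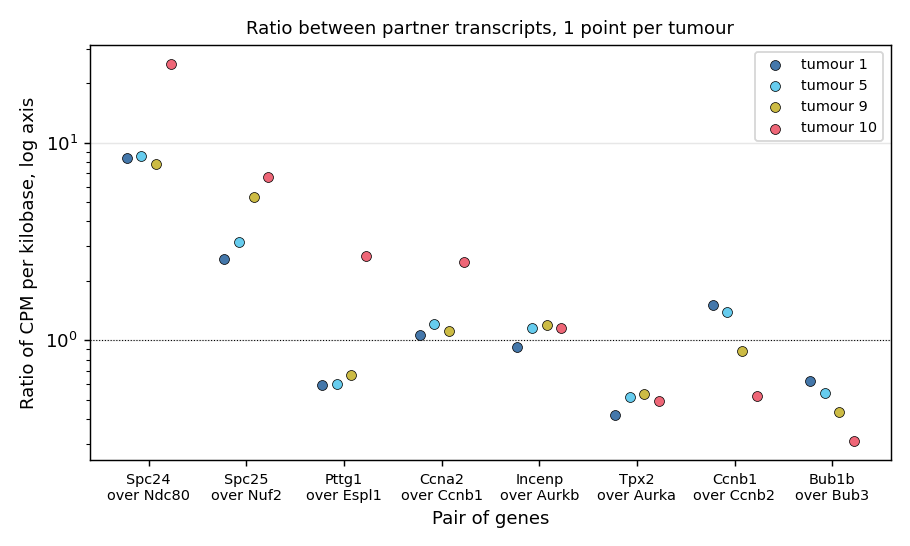
Ratios of CPM per kilobase between partner transcripts, 1 point per tumour, on a log axis; the dotted line marks equal levels. Tumour 10 stands apart for Spc24 over Ndc80 (25.2 against at most 8.59) and Pttg1 over Espl1 (2.68 against at most 0.669, with the 1690-base Pttg1 row), while Incenp over Aurkb and Tpx2 over Aurka stay within narrow ranges.

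The pairs of partner genes were chosen after the levels were seen, so their ratios are descriptions. Each ratio uses 1 transcript row per gene; other rows moved the values by less than 1.5 times, except for Birc5 and Pttg1 as given. Ratios within a library do not depend on the scaling between libraries, but they do depend on transcript length where a library favours short or long transcripts.

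With all 4 tumours, no member passed the edgeR or limma-voom test of 1 tumour against the other 3 over all genes. The edgeR quasi-likelihood test, which assumes that the lone tumour varies like the other 3, called 0 of 50 members and 0% of all genes in tumour 10 after adjustment over all genes and the 4 tumours, and 0 members in each of the other tumours. At an unadjusted p under 0.05, 22 of the 50 members were lower in tumour 10, against 8.23% of all genes, and 1 (Spc24) was higher, against 13.9%. Leaving out tumour 1 or tumour 5 made fewer members lower at that p, and leaving out tumour 9 made more. The share of all genes was not taken for those fits, so a change in the members cannot be told from 1 in the whole library. In tumours 1, 5 and 9, 0 members had an unadjusted p under 0.05, against 0.716, 0.922 and 5.66% of all genes. The DESeq2 Wald test called 8 members lower in tumour 10 after the same adjustment (Mki67, Top2a, Ccnb1, Plk1, Kif2c, Cenpa, Prc1 and Espl1), against 4.39% of all genes, and limma-voom called 0. Without tumour 9, edgeR called Prc1 (log2 difference -2.03, adjusted p = 0.0489).

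Transcript length moved with the level in tumour 10. Over all expressed genes, the median level in tumour 10 was 129% of the mean of the others in the first of 10 equal classes of transcript length, the shortest, and 74.4% in the last. The 14 members under 2000 bases lay at a median of -0.49 log2 units in tumour 10, the 22 from 2000 to under 4000 bases at -0.53, and the 14 of at least 4000 bases at -0.78. The 3 members highest in tumour 10 all had rows under 2000 bases, but Ube2c, the shortest at 931 bases, stood at 50.9%. After the median of all genes in the same of the 10 length classes was subtracted, the median member lay at -0.56 in tumour 10, and 42 of the 50 were lowest there, against 32.4% of all genes treated the same way. The 3 length classes then lay at -0.62, -0.55 and -0.56. Spearman's rho between length and deviation in tumour 10 was -0.44 across the 50 members and -0.27 across all genes, as a description of genes that share the same libraries.

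**Figure D4:**
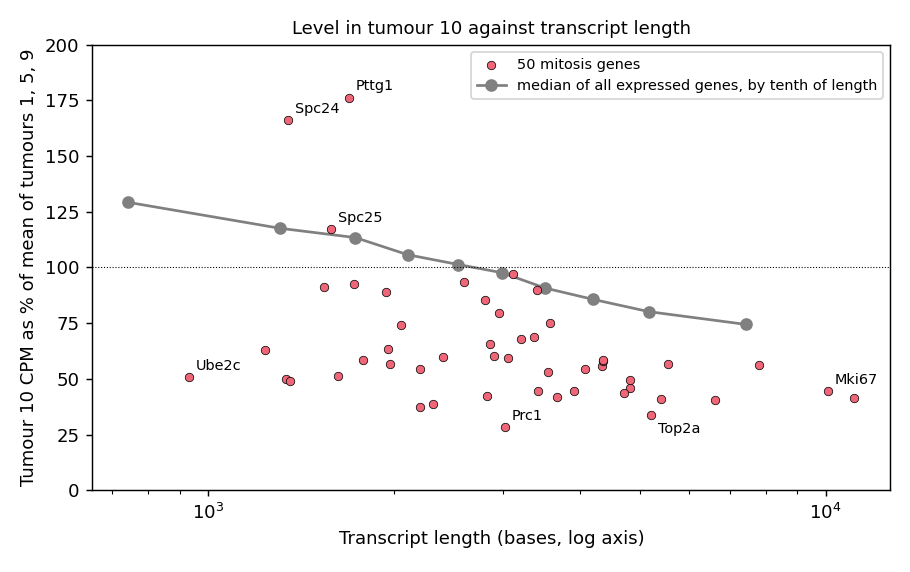
Level in tumour 10 as a percentage of the mean of tumours 1, 5 and 9 (y axis) against transcript length (x axis, log) for the 50 genes, with the median of all expressed genes in each of 10 length classes in grey. Most members lie below the grey line, with Spc24 and Pttg1 far above it.

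Promoter letters and levels were set side by side without a test. The 30 members with CHR letters in the window lay at a median of -0.72 log2 units in tumour 10. Of them 26 were lowest there, against 32.4% of all genes. The 12 members with a listed promoter and no CHR letters lay at -0.45, and 9 of them were lowest there. They include Pttg1, whose printed stretch lies inside the gene by the coordinates used here. The 8 members with no listed promoter lay at -0.36, and 6 of them were lowest there. Ccnb1, at 38.9% of the other tumours' mean, has no CHR letters in its window. Part of that window also lies inside its gene by the same coordinates.

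Other lists of division genes outside the 50 also had their lowest median in tumour 10, nearer to 0 than the -0.58 of the 50. Medians from the 4-tumour mean in tumours 1, 5, 9 and 10 were 0.32, 0.11, 0.01 and -0.43 for 28 other spindle and cytokinesis genes, of which 20 were lowest in tumour 10, against 32.4% of all genes. They were 0.16, 0.12, -0.07 and -0.30 for 30 other centromere and kinetochore genes (17 lowest there), and 0.28, 0.17, -0.13 and -0.37 for 8 condensin subunits (6 lowest there). The 17 subunits and regulators of the anaphase-promoting complex lay at 0.13, 0.10, -0.08 and -0.26 (10 lowest there), and 10 genes of mitotic entry control at 0.23, 0.24, 0.03 and -0.35 (7 lowest there). After length correction the medians in tumour 10 were -0.40, -0.42, -0.19, -0.20 and -0.55 for these lists, against -0.56 for the 50. In these lists, in that order, 10, 7, 1, 1 and 3 genes were lower in tumour 10 at an unadjusted edgeR p under 0.05, against 8.23% of all genes, and 1, 0, 1, 2 and 0 were higher, against 13.9%. The counts of the condensin and anaphase-promoting complex lists lie near those shares. No gene of these lists passed the edgeR test after adjustment. The DESeq2 Wald test called 4, 2, 1, 0 and 1 genes lower in tumour 10, in the same order of lists, against 4.39% of all genes. Apart from the 4 spindle and cytokinesis genes, these are 2 genes or fewer per list.

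Some of these genes departed widely from their lists. Cit, the citron kinase of the cytokinetic ring, had 20.95, 18.4, 12.5 and 0.9515 CPM, the widest spread among them. Casc5, which encodes the kinetochore scaffold KNL1, had 35.5, 26.2, 20.3 and 8.53 CPM. Among the condensin subunits, Smc2 had 101, 97.9, 74.3 and 39.75 CPM, while the more abundant Ncaph2, of the condensin II complex, went the other way with 191, 231, 183 and 319.8 CPM and was highest in tumour 10. Hjurp, the chaperone of Cenpa, had 406, 258, 322 and 436 CPM, also highest in tumour 10, where Cenpa was lowest; with total counts alone Hjurp was highest in tumour 1 and Ncaph2 still in tumour 10. Cit, Casc5 and Smc2 have long transcript rows, of 6896, 6525 and 5321 bases, but so does Hjurp, at 8439. Smc4 and Zwint had 245, 220.5, 194 and 171 CPM and 93.7, 144, 64.4 and 83.5 CPM. The nuclear transport genes Ran and Kpna2, which also serve spindle assembly, had 783, 922, 602 and 559.5 CPM and 205, 207, 132 and 161 CPM. Of the anaphase-promoting complex, Anapc5 and Anapc1 had 245, 180.1, 242 and 200.3 CPM and 208, 180.3, 93.9 and 112 CPM.

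Among entry control genes, the phosphatase Cdc25a had 96.8, 113, 79.98 and 48.05 CPM, the CDK1-inhibiting kinase Wee1 58.3, 57.55, 39.8 and 25.6 CPM and the CDK subunit Cks2 86.6, 88.9, 82.8 and 61.9 CPM. All 3 were lowest in tumour 10, the activator and the inhibitor alike.

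Most regulators of the programme were lowest in tumour 10 as well. The 18 DREAM, MMB and E2F genes lay at medians of 0.15, 0.22, 0.13 and -0.51, with 12 of 18 lowest in tumour 10, against 32.4% of all genes, and 5 lower at an unadjusted edgeR p under 0.05, against 8.23%. After length correction their median in tumour 10 was -0.34. Tfdp1, the partner that E2F proteins need to bind DNA, was the most abundant, with 291, 240.2, 187 and 81.5 CPM. E2f1, an activator of S phase genes, had 35, 34.8, 32.4 and 18.35 CPM, Mybl2, the MYB subunit of MMB, 53.2, 58.1, 53.7 and 37.4 CPM, and E2f2 8.74, 21.7, 28.4 and 4.43 CPM. Rbbp4, a subunit shared with other chromatin complexes, was nearly level with 161, 172, 196 and 151 CPM. Cdkn1a, which encodes the CDK inhibitor p21, had 140.3, 156, 78 and 196 CPM, highest in tumour 10 (in tumour 5 with total counts alone) and lowest in tumour 9 (edgeR adjusted p = 0.9765 for tumour 10).

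**Figure D5:**
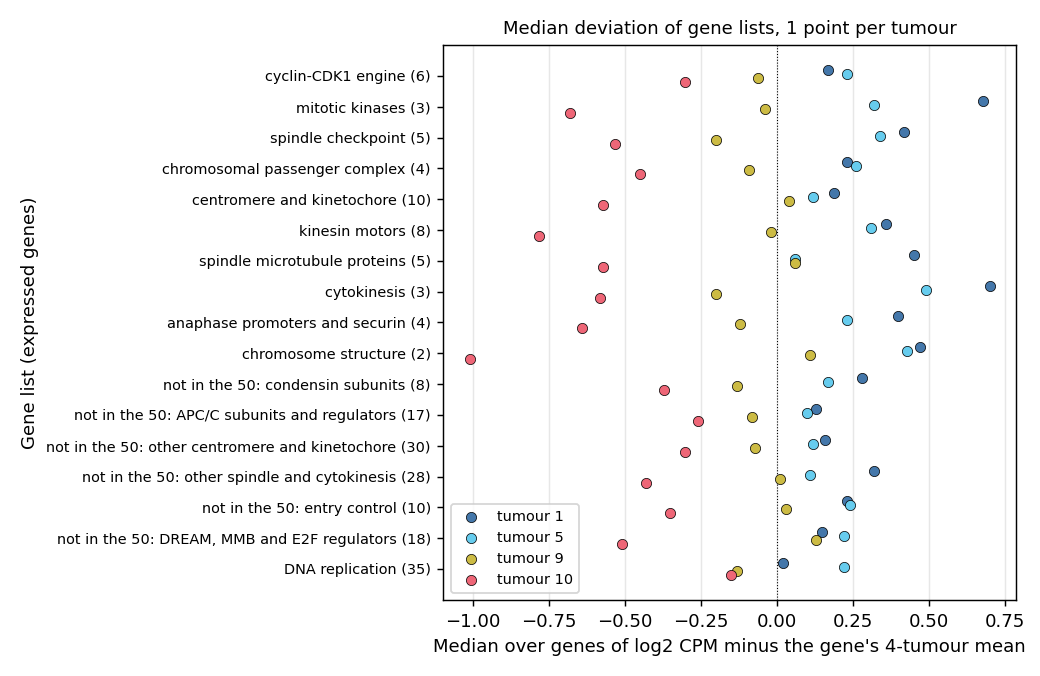
Median deviation of each gene list from its genes' 4-tumour means, 1 point per tumour, with the number of expressed genes in brackets. Tumour 10 is lowest for every list shown, from -1.01 for the 2 chromosome structure genes to -0.15 for DNA replication.

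DNA replication genes, which act before mitosis, were arranged differently. The 35 genes of this list lay at 0.02, 0.22, -0.13 and -0.15. Of the 35, 24 were highest in tumour 5 (21.2% of all genes), 16 lowest in tumour 10 (32.4%) and 15 lowest in tumour 9 (25.5%). With total counts alone 31 of the 35 were lowest in tumour 10, against 53.3% of all genes. The median of the 35 there was -0.47, against -0.30 for all genes. The replication clamp Pcna had 194, 235, 159.7 and 283.5 CPM and the helicase subunit Mcm6 185, 158, 249 and 242 CPM, neither of them lowest in tumour 10. Cdc6, which loads the helicase, had 27, 21, 19.8 and 6.36 CPM. Their median in tumour 10 was 85.2% of the mean of the other tumours, against 56.9% for the 50 mitosis genes; the difference between the lists was not tested.

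Markers of other cell types moved with the tumours too, and their part in the result was not tested. Hepatocyte markers summed to 17300, 19040, 23850 and 43650 CPM in tumours 1, 5, 9 and 10, with 10 of 12 highest in tumour 10. Stellate cell and fibroblast markers summed to 412, 291, 504 and 112 CPM, with 8 of 8 lowest in tumour 10, and bile duct markers to 51.2, 79.4, 15.5 and 13.9 CPM, with 4 of 5 expressed ones lowest there. Col3a1, a collagen of fibroblasts, had 135, 101, 157 and 31.9 CPM, and Tat, an enzyme of mature hepatocytes, 41, 5.16, 4.6 and 1166 CPM. In tumour 9, markers of red cell precursors summed to 91.4, 129.7, 897 and 102 CPM over the 4 tumours and those of neutrophils and their precursors to 16.4, 15.1, 606 and 24.9 CPM, with 12 of 12 in each list highest in tumour 9. Of the 50 mitosis genes, 2 were highest in that tumour, against 21.6% of all genes, and any link to these markers was not tested. Macrophage markers summed to 326, 274, 1173 and 511 CPM, endothelial markers to 79.95, 89.2, 131 and 99.9 CPM, and T and B cell markers to 3.2, 2.265, 6.07 and 3.95 CPM, with 10 of the 11 lymphocyte genes below a mean of 1 CPM and none at 0 in all tumours.

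Reads of neighbouring genes touch some of these values. The sources used here do not say whether counting used strand, and 15 of the 50 members share exon bases with another gene in GENCODE M21, 6 of them over at least 10% of their exon bases: Kif20a (29.3%, with Cdc23), Ube2c (22.8%, with Tnnc2), Kif4 (15.1%, with Pdzd11), Cdc25c (12.7%), Ccna2 (12.5%, with Exosc9) and Prc1 (11.1%, with Rccd1). Those levels are uncertain. Of the 35 members that share none, 28 were lowest in tumour 10, and their median there was -0.58 log2 units.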

How the data were processed

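Poly-A RNA of 4 tumours was extracted with Trizol, treated with DNase and made into TruSeq libraries, per the labels' protocols. Per the submitters' processing notes, the tool FastQC 0.11.8 and the build GRCm38 were used. Aligner, counter and strand setting were not given in the sources used here. The authors' deposited counts are whole reads for 33984 RefSeq transcript rows, where isoforms repeat reads. The deposited FPKM, so named per the file headers, gave transcript lengths that were whole within 0.01 bases for 100% of rows. The deposited TPM summed to 1000000 in each library and was not used further.

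Each symbol was represented by its row with the highest mean count. Gene totals ranged from 41547938 to 51939623 counts, and 3 counts corresponded to 0.0524 to 0.0892 CPM; such floors cover counting error only. Counts were scaled by TMM in edgeR 4.0.16 (R 4.3.3), with factors of 1.102, 1.031, 1.098 and 0.8018 for tumours 1, 5, 9 and 10. The prior count in log2 CPM was 2. Each gene was tested for heterogeneity beyond Poisson counting (chi-square). The two-sided edgeR quasi-likelihood test, with robust estimation, set each tumour against the other 3, with p-values adjusted by Benjamini-Hochberg over all 13129 genes with a mean of at least 1 CPM and the 4 tumours together. DESeq2 1.42.0 and limma 3.58.1 were alternatives. On simulated counts at a dispersion of 0.05, the edgeR test of tumour 10 recovered 82.7% of genes lowered 4-fold and 100% of those lowered 16-fold over 13060 genes. At 0.3, the common dispersion over all expressed genes with the 4 tumours as 1 group, it recovered 0% of both over 12964 genes. The Poisson test called 0% of 13095 genes simulated with counting noise alone.

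The members and lists were chosen with earlier results of these data known. By the naming rule all members may be named; each role's member with the highest mean CPM, largest SD and smallest SD is given in all tumours, and other lists are named through their 2 most abundant genes and the 1 with the largest SD, with E2f1, Mybl2 and Cdkn1a in any case. Renamed genes were matched through RefSeq synonyms (Adgre1 as Emr1, Sgol2a as Sgol2). Alternatives were other scalings, no filter, another prior count, the sum over rows, length correction and leaving out each tumour. Coordinates are those of GENCODE M21.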

Additional observations from a re-analysis of the deposited data

Results flagged for a closer look

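Results were looked at for 1 tumour far from the other 3, where the gap to the nearest value, as a share of the whole range, passed Dixon's 95% critical value for 4 samples. Of 68 results so tested, 4 had such a tumour, and chance alone gives about 1 in 20. Tumour 10 was the lone low tumour in each. The gap took 0.849 of the range for log2 CPM of Mki67, 0.887 for Cenpa and 0.895 for Cenph. It took 0.877 for the median deviation of the DREAM, MMB and E2F regulators. For each of them tumours 1, 5 and 9 lay close together.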

How the results depend on the processing

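The low level of the mitosis genes in tumour 10 kept its direction under every alternative run that includes that tumour. The median deviation there was -0.58 with DESeq2 size factors, -0.90 with total counts alone, and -0.46 to -0.63 with 1 other tumour left out, and 41 to 47 of the 50 members were lowest there. Scaling by total counts alone also gave a median of 0.08 in tumour 9, 5 members highest in tumour 9, 2 lowest in tumour 9 and 2 with an SD of at least 1. More members were then lower in tumour 10 at an unadjusted edgeR p. With that scaling 53.3% of all genes were lowest in tumour 10, and their share at that p was not taken. The cause was not tested. With 1 tumour left out, the number highest in tumour 1 was 28 to 42, in tumour 5 18 to 40 and in tumour 9 3 to 7, the number lowest in tumour 9 was 6 to 40, and the median in tumour 9 was -0.27 to 0.06. The median was 0.16 to 0.43 in tumour 1 and 0.10 to 0.37 in tumour 5. No share of all genes was taken with a tumour left out. Over the same alternatives 0 to 2 members had an SD of at least 1, 11 to 36 were lower in tumour 10 at an unadjusted edgeR p, and 0 to 1 passed the adjusted edgeR test there; fewer samples were fitted. The DESeq2 Wald test called 8 members in tumour 10; the cause was not tested. Mean log2 CPM moved by more than the spread between tumours in 37 member values and by less in 363, and most of the 37 came from the sum over rows, which repeats reads. The counts of members lowest in a tumour, the unadjusted count, the removal of members sharing exon bases and the other transcript rows in the ratios were added after seeing the data. No paired analysis was possible because there is 1 group. On simulated counts in which every gene had a dispersion of 0.3, 4-fold and 16-fold lower genes were recovered in 0%. That value was estimated over all expressed genes with tumour 10 included. The recovery of the mitosis genes at their own spread was not tested.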
